A study of Homo sapiens with 14 samples.

Results

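The genes described here are 9 transcription factors that direct or mark epithelial lineages of the lung: the forkhead factors FOXA1 and FOXA2, the zinc finger factor GATA6, the SOX factors SOX4 and SOX9, the ETS factor ELF3, the homeodomain factor NKX2-1, the Notch target HES1 and the grainyhead-like factor GRHL2. They were taken by symbol from a table of 58780 genes, and each symbol matched 1 row. Their nascent transcription was read by PRO-seq, a run-on assay that sequences the RNA held by engaged polymerases. All libraries came from A549, an established line derived from a human lung adenocarcinoma. There were 7 groups with 2 libraries each: cells without inhibitor or Dex (untreated, carrying the 15 min label), cells given GSK591, an inhibitor of the arginine methyltransferase PRMT5, for 15 min or 3 h, cells given MS023, an inhibitor of the type I arginine methyltransferases, for 15 min or 3 h, and cells given either inhibitor together with the synthetic glucocorticoid dexamethasone (Dex) for 15 min. The labels give 1 µM for each inhibitor, 100 nM for Dex and 0.01% DMSO for every group, the untreated one included. Cells given Dex alone and untreated cells at 3 h are not analysed here, so an effect of Dex is always Dex added to an inhibitor. Likewise, 3 h of inhibitor cannot be told apart from 3 h of other handling. This holds when it is set against untreated cells and when it is set against 15 min of the same inhibitor. Nothing in the labels says that the 2 libraries of a group came from separate cultures, so p-values measure the spread between these libraries, which may be technical.

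FOXA1 and FOXA2 are pioneer factors that bind closed chromatin in foregut-derived epithelia, and GATA6 acts with them in the developing lung endoderm. NKX2-1 is the defining regulator of the distal lung and drives surfactant genes in alveolar type II cells. SOX9 marks the distal tips of the branching lung, SOX4 is a widely expressed SOXC factor, ELF3 is an epithelial ETS factor of airway and gut, HES1 is a repressor induced by Notch receptors, and GRHL2 sustains genes of epithelial junctions. HES1 represses its own promoter through sites known as N boxes and is activated there by RBPJ, the DNA-binding partner of the Notch intracellular domain.

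Total counts per library ranged from 5768312 to 9606938, and the replicates of a group correlated at Pearson's r of 0.971 to 0.986 across genes on the log2 CPM scale. Mitochondrial genes took 39.8% to 58.0% of counts. The MS023 15 min pair had 44.5% and 39.8%, and its second library, with the lowest share of the 14, is also the shallowest. The keratin genes differed widely in these libraries. KRT8 had a mean of 302 CPM (counts scaled to library size) and KRT18 141 CPM, while KRT19 had 18.7 and KRT15 13.7 CPM. KRT5 and KRT14 had 0 to 2 reads per library. Of the alveolar type II markers, LPCAT1 had 214 to 399 reads per library, SFTPB 97 to 153 and ABCA3 92 to 235, while SLC34A2 had 0 to 1, LAMP3 0 to 2 and SFTPA1 0 to 2. The leukocyte gene PTPRC had 0 to 1 read, and the T cell gene CD3E had none in any library. In bulk libraries, fewer transcribing cells and less transcription per cell cannot be told apart.

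Promoter sequences were taken from RefSeq (GRCh38.p14), whose table held 6 of the 9 genes. The 250 bases upstream of the HES1 start are shown because HES1 is the factor of the set whose regulation by Notch runs through named promoter sites; the last bases of the stretch lie inside the gene as annotated in GENCODE 29. Capitals mark a match, on either strand, to one of the motifs that were searched: the TATA box TATAAA, the RBPJ site GTGGGAA, the N box CACNAG, the CCAAT box CCAAT, the GC box GGGCGG, the E box CACGTG, the glucocorticoid receptor hexamer AGAACA, the FOXA site TGTTTAC, the GATA site AGATAA and the ETS site CCGGAAG.
HES1 (chr3:194135898-194136147, plus strand): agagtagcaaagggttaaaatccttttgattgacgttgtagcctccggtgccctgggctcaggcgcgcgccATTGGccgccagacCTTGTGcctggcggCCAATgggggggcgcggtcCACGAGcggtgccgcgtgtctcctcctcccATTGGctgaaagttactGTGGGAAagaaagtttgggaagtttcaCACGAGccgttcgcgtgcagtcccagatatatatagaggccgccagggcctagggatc
The HES1 promoter held the RBPJ site once, starting at -85 from the transcription start. That motif occurs in 6.25% of the 35116 RefSeq promoters of the same length (300 bases, of which 50 follow the start). HES1 also held N boxes at -165, -132 and -58 in the printed stretch and another at 16 downstream; 38.0% of promoters hold at least 1. CCAAT boxes stood at -179, -151 and -102, and 34.6% of promoters have one. In the windows that are not printed, ELF3 had a TATA box at -34, found in 11.5% of promoters, a CCAAT box at -73 and an N box at -64. SOX4 carried 4 CCAAT boxes, at -181, -114, -57 and -10, and GATA6 one at -92 with an N box at -24. One of the 2 RefSeq starts of NKX2-1 had a FOXA site at -130 (3.42% of promoters), a GATA site at -100 (10.3%), an N box at -40 and a CCAAT box at 30. GC boxes (45.0%) stood only in FOXA1 and at the other NKX2-1 start. The hexamer AGAACA, present in 14.8% of promoters, was in none of these windows, nor were the E box (7.26%) and the ETS site (10.3%). A match is a stretch of letters and not a measured binding site, and no matches in the printed stretch overlapped.

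7 of the 9 factors were transcribed and 2 were silent, meaning that they failed edgeR's expression filter. NKX2-1 (chromosome 14, 36516392 to 36521149, minus strand, hg38) had 14 reads over all 14 libraries, with 0 to 3 per library. It had 3 and 1 reads in untreated cells, 1 and 1 with GSK591 at 15 min, 0 and 3 with GSK591 and Dex, 1 and 2 with MS023 and Dex, 2 and 0 with MS023 at 3 h, and 0 in the MS023 15 min and GSK591 3 h libraries. GRHL2 (chromosome 8, 101492432 to 101669726, plus strand) had 20 reads in all, with 0 to 5 per library. Both MS023 3 h libraries had 5 reads of it, the GSK591 and Dex libraries 0 and 3, the GSK591 3 h libraries 0 and 2, and the other 8 libraries 0 or 1. A count of 0 allows up to 3 reads, which is 0.317 to 0.459 CPM depending on the library. All but the MS023 3 h values of GRHL2 lay at or under that limit. The filtered edgeR fit gave no fold change for either gene. Counts rose with exon length and not with gene span, but the counted feature is not given in the sources used here. If only exons were counted, reads from the introns of a long gene such as GRHL2 lie outside the counts.

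Per kb of exon, ELF3 had the highest level of the 9, with 37.0 to 58.5 CPM per kb and a mean of 47.3 over the 14 libraries. Only 1.37% of the tested genes had a higher mean. FOXA2 (mean 11.4 CPM per kb, range 7.52 to 15.0) and FOXA1 (mean 11.3, range 9.38 to 13.2) followed and did not separate: each was the higher of the pair in 7 of 14 libraries. SOX4 (mean 8.95), HES1 (6.70) and SOX9 (5.28) came next. FOXA1 exceeded SOX4 and SOX4 exceeded HES1 in 14 of 14 libraries each, and HES1 exceeded SOX9 in 13 of 14, with no overlap of libraries in 5 of 7 groups. GATA6 was far lower at a mean of 0.447 CPM per kb, with 92.7% of tested genes above it, and exceeded NKX2-1 in all 14 libraries. NKX2-1 and GRHL2, at means of 0.0382 and 0.0298 CPM per kb, did not separate by library: NKX2-1 was the higher in 7 libraries and GRHL2 in 4, and both were at 0 in the other 3. This order held within the untreated pair except for FOXA2 and FOXA1, whose untreated levels overlapped (10.5 and 11.4 against 11.1 and 12.7 CPM per kb).

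**Figure D1:**
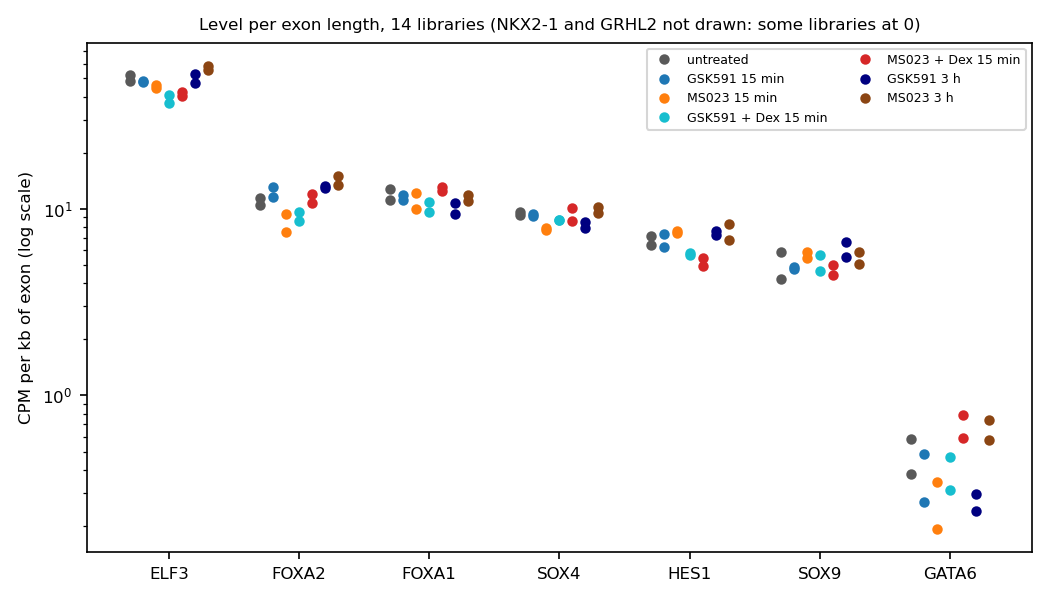
Levels per kb of exon of the 7 transcribed factors on a log axis, 1 point per library, coloured by group. ELF3 lies above every other factor, FOXA2 and FOXA1 share a range, and GATA6 lies below 1 CPM per kb in all 14 libraries.

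Each comparison was tested with edgeR across 21910 genes, and a gene was called at a Benjamini-Hochberg adjusted p under 0.05 over all of them. At 15 min, none of the 7 tested factors was called with either inhibitor alone: GSK591 called 0 of 7 (0.306% of all tested genes were called) and MS023 0 of 7 (0.183%). Against untreated cells, GSK591 with Dex called 1 of 7, ELF3 (5.85%), and MS023 with Dex called none (7.66%). GSK591 for 3 h called none (11%), and MS023 for 3 h called 1, FOXA2 (7.63%). Dex added to GSK591 called 1, FOXA2 (3.7%). Dex added to MS023 called 3, FOXA2, GATA6 and HES1 (8.97%). The difference between those Dex effects called 1, FOXA2 (1.15%). From 15 min to 3 h, GSK591 called none (6.41%) and MS023 called 4, FOXA2, GATA6, SOX4 and ELF3 (12%). GSK591 against MS023 called 1 at 15 min, FOXA2 (1.09%), and 0 at 3 h, where no gene of the whole table passed (0%) although 1319 genes had an unadjusted p under 0.05. At an unadjusted p under 0.05, edgeR had 0 of the 7 for GSK591 at 15 min, beside 1501 of all 21910 genes. For MS023 at 15 min it had 2 (FOXA2 and SOX4, beside 1770 genes), and for MS023 with Dex 2 (ELF3 and HES1, beside 4348). GSK591 at 3 h had 3 (FOXA1, FOXA2 and SOX4, beside 5208) and GSK591 over time 1 (SOX9, beside 4271). Between the inhibitors at 3 h there were 2 (GATA6 and SOX4, beside 1319). DESeq2 called none in these comparisons except ELF3 for MS023 with Dex. The median log2 fold change of the 7 was 0.34 for MS023 at 3 h against 15 min, where that of all genes was -0.01, and it was 0.23 against -0.02 for Dex added to MS023 and -0.26 against 0.01 for GSK591 with Dex against untreated cells. Comparisons that share libraries are not independent: the calls for MS023 over time and for Dex added to MS023 both rest on the MS023 15 min pair.

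**Figure D2:**
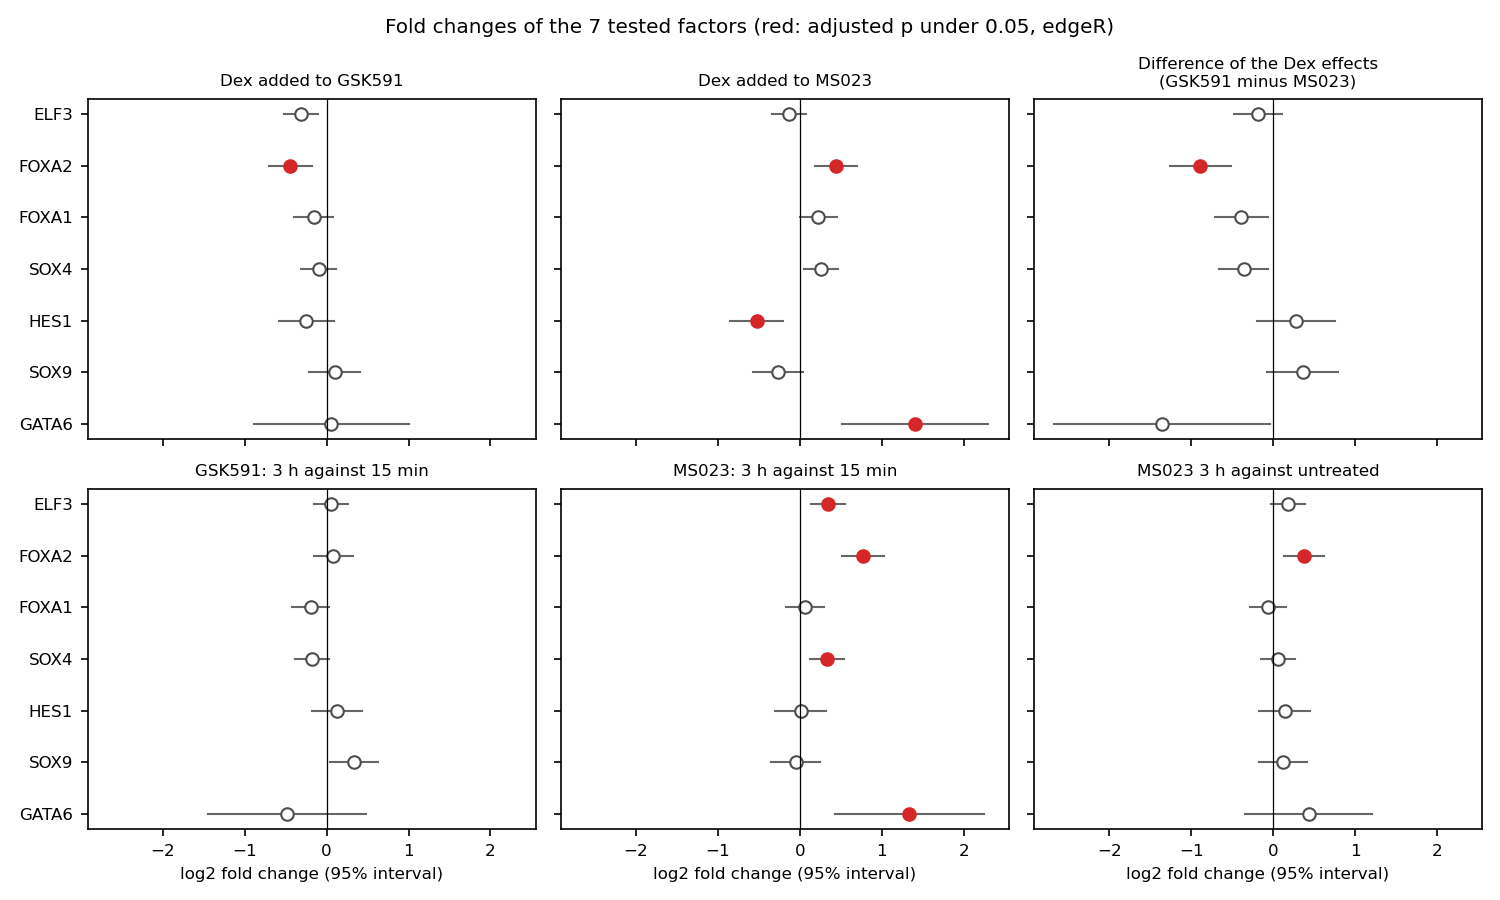
Log2 fold changes of the 7 tested factors in 6 comparisons, with 95% intervals; red points passed the adjusted threshold. FOXA2 lies on opposite sides of 0 when Dex is added to GSK591 (-0.44) and to MS023 (0.44), and 4 factors are red for MS023 at 3 h against 15 min.

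FOXA2 (chromosome 20, 22581005 to 22585455, minus strand) varied the most across groups among the well-counted factors and was called in 6 of 13 comparisons. Untreated libraries had 29.7 and 27.4 CPM, and those with GSK591 for 15 min 30.3 and 34.1. The MS023 15 min pair had 19.6 and 24.5 CPM. With GSK591 and Dex the values were 24.9 and 22.3, and with MS023 and Dex 28.0 and 31.2. At 3 h they were 34.5 and 33.5 CPM with GSK591 and 39.0 and 35.1 with MS023. The MS023 15 min and the GSK591 and Dex libraries were thus the lowest 4 of the 14, and the MS023 3 h libraries the highest 2.

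The firmest difference in FOXA2 was between 3 h and 15 min of MS023, where it rose by 0.77 ± 0.13 on the log2 scale (SE, n = 2 per group, adjusted p = 2.4e-05 by edgeR). This call held under all 22 alternative settings, at 0.60 to 0.93, with adjusted p up to 0.0152. Against untreated cells the rise with MS023 at 3 h was 0.38 ± 0.12 (adjusted p = 0.039). DESeq2 gave 0.38 with adjusted p = 0.177, and leaving out untreated replicate 1 (0.0986), untreated replicate 2 (0.299), GSK591 3 h replicate 2 (0.0594) or MS023 3 h replicate 1 (0.345) also ended this call. The same comparison for GSK591 at 3 h gave 0.25 ± 0.12 (adjusted p = 0.18), and GSK591 differed from MS023 at 3 h by -0.13, with a 95% interval of -0.36 to 0.11. Over time, GSK591 gave 0.08 ± 0.12 for FOXA2 between 15 min and 3 h (adjusted p = 0.77); whether that differs from the change with MS023 was not tested.

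FOXA2 fell when Dex was added to GSK591 and rose when Dex was added to MS023. The log2 fold change with Dex added to GSK591 was -0.44 ± 0.13 (adjusted p = 0.043). With Dex added to MS023 it was 0.44 ± 0.13 (adjusted p = 0.022). The difference between them was -0.89 ± 0.18 (adjusted p = 0.0071). The starting points also differed, since FOXA2 was higher with GSK591 than with MS023 at 15 min by 0.56 ± 0.13 (adjusted p = 0.016). With both Dex groups set against untreated cells, FOXA2 gave -0.27 ± 0.13 with GSK591 (adjusted p = 0.25) and 0.05 ± 0.12 with MS023 (adjusted p = 0.88), and neither passed. Without MS023 15 min replicate 1, the rise with Dex added to MS023 became 0.28 (adjusted p = 0.469), the difference of Dex effects -0.72 (0.217) and the difference between the inhibitors 0.40 (0.671). Leaving out MS023 and Dex replicate 2 also ended the first pair of these calls (0.37 with adjusted p = 0.229, and -0.82 with 0.0767), and leaving out either GSK591 15 min library ended the last (0.64 with 0.0848, and 0.48 with 0.216). With DESeq2 the changes were -0.44 (adjusted p = 0.165) and 0.44 (0.106), neither called, while the difference of Dex effects stayed called. The fall with Dex added to GSK591 stayed called in 4 of 14 fits that left out 1 library, those without a MS023 15 min or a MS023 3 h library, and the others gave -0.53 to -0.36 with adjusted p up to 0.326.

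FOXA1 (chromosome 14, 37589984 to 37596059, minus strand), the other forkhead factor of the set, was called in none of the 13 comparisons. It had 44.3 and 50.7 CPM in untreated cells, and its 14 values ran from 37.4 (a GSK591 3 h library) to 52.5 (a MS023 and Dex library). Its log2 fold changes for Dex were -0.16 ± 0.12 beside GSK591 (adjusted p = 0.54) and 0.23 ± 0.11 beside MS023 (adjusted p = 0.24). GSK591 at 3 h gave -0.25 ± 0.11 (adjusted p = 0.15), a value that passed only when mitochondrial genes were left out and library size alone was used for scaling. With that scaling the median of all genes was -0.12. FOXA3, the third forkhead factor of this family, had a mean of 2.56 CPM and was not called in any comparison.

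**Figure D3:**
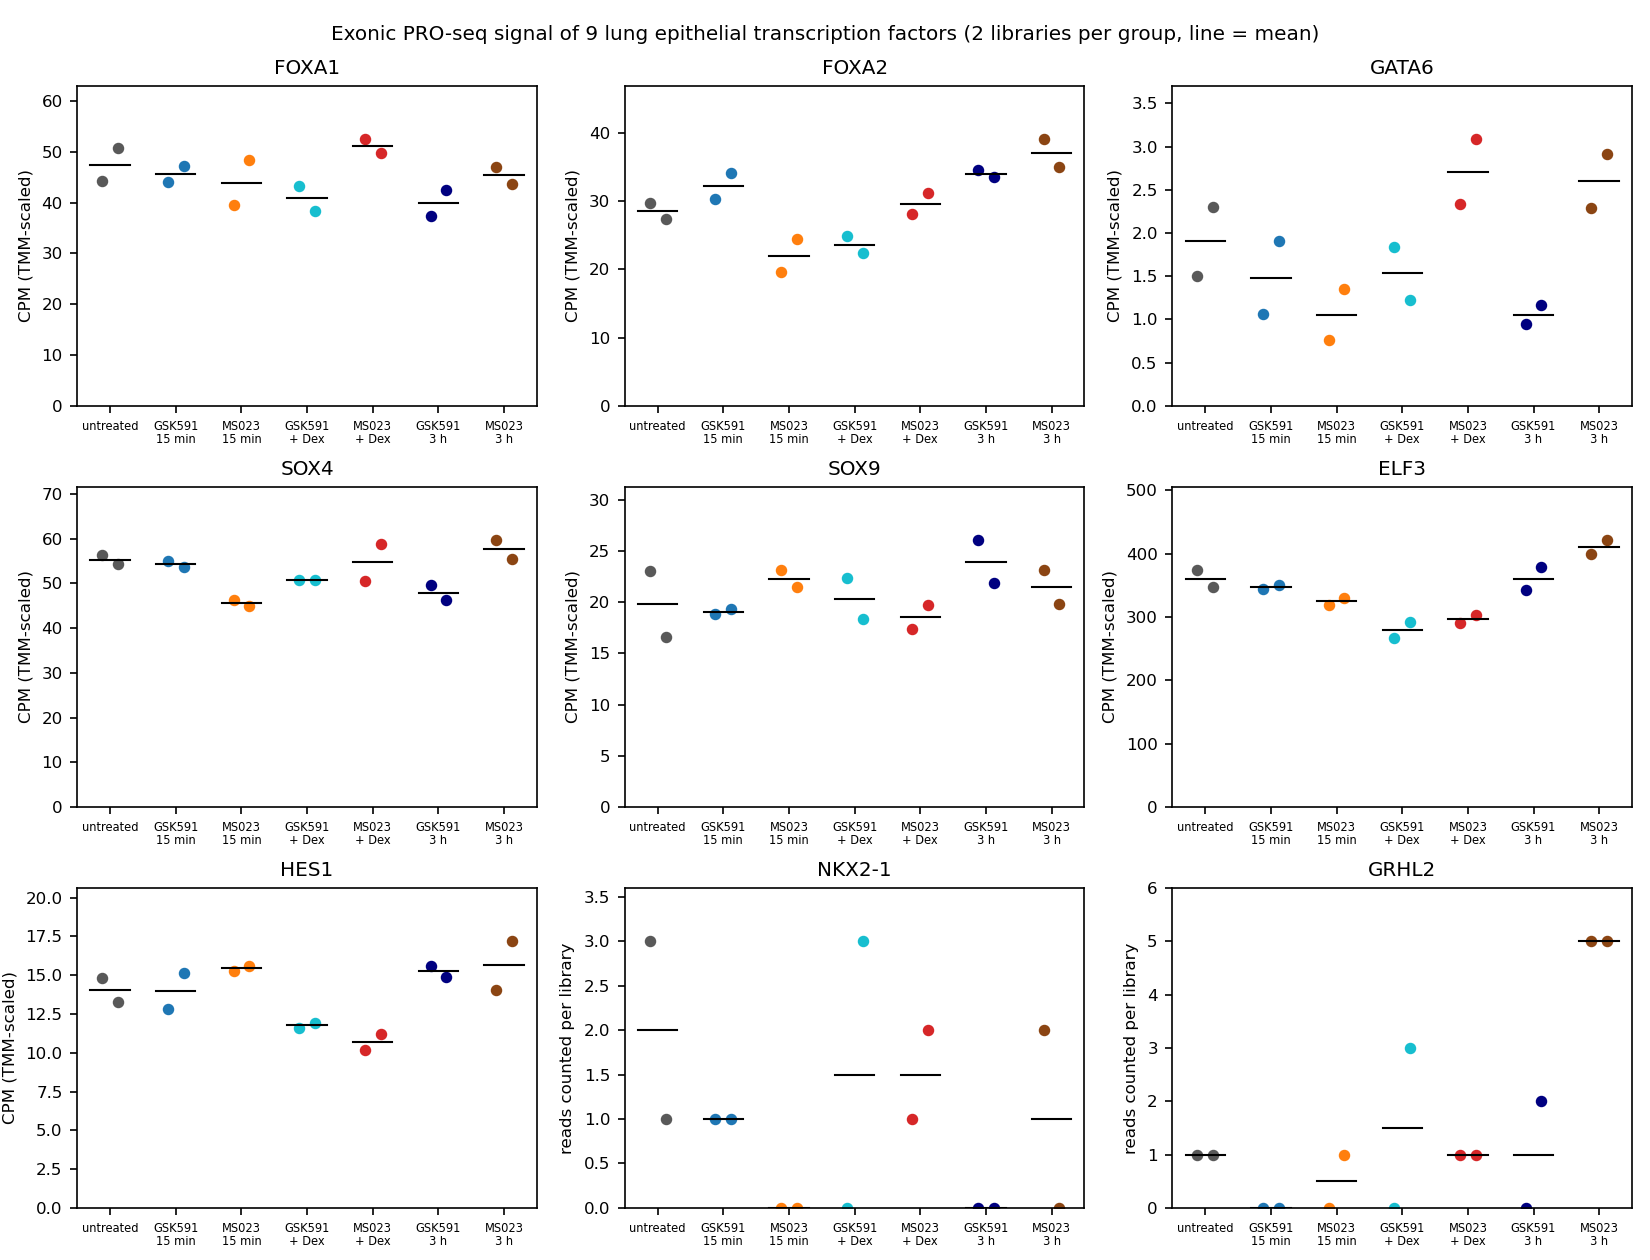
Values of the 9 factors in every library by group, in CPM for the 7 transcribed factors and in reads for NKX2-1 and GRHL2, with lines at the group means. ELF3 and HES1 are lowest in the 4 Dex libraries, and FOXA2 is lowest with MS023 at 15 min and with GSK591 and Dex.

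GATA6 (chromosome 18, 22169443 to 22202528, plus strand) was transcribed at a low level, with 7 to 27 reads per library, so counting error alone gives a coefficient of variation of 26.1%. It had 14 and 21 reads in untreated cells, 9 and 16 with GSK591 at 15 min, 7 and 9 with MS023 at 15 min, 13 and 8 with GSK591 and Dex, 20 and 27 with MS023 and Dex, 9 and 10 with GSK591 at 3 h, and 21 and 21 with MS023 at 3 h. The MS023 15 min counts lay below those of both other MS023 groups. GATA6 rose with Dex added to MS023 by 1.41 ± 0.44 on the log2 scale, or 2.66-fold (adjusted p = 0.035), and from 15 min to 3 h of MS023 by 1.33 ± 0.45, or 2.52-fold (adjusted p = 0.044). Neither MS023 group with more reads differed from untreated cells past the threshold (0.51 ± 0.38, adjusted p = 0.51 with Dex; 0.43 ± 0.38, adjusted p = 0.59 at 3 h). Without MS023 15 min replicate 1 the 2 rises were 1.00 (adjusted p = 0.44) and 0.92 (0.401). Each other library of the MS023 15 min, MS023 3 h and GSK591 3 h pairs also ended the call over time when left out (adjusted p 0.0512 to 0.204), and each MS023 and Dex library the call for Dex (0.0597 and 0.273). The antisense gene GATA6-AS1, which shares 6.08% of GATA6's exonic bases, was not called in either comparison (0.27 ± 0.36 and 0.22 ± 0.37, adjusted p 0.75 and 0.77). Because the strand setting of the counting is not given in the sources used here, reads in the shared stretch cannot be told apart.

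SOX4 (chromosome 6, 21592768 to 21598619, plus strand, 1 exon) had 56.4 and 54.3 CPM in untreated cells, 46.3 and 45.0 with MS023 at 15 min, and 59.6 and 55.6 with MS023 at 3 h; its 14 values spanned 45.0 to 59.6. It rose from 15 min to 3 h of MS023 by 0.34 ± 0.10 (adjusted p = 0.025). The difference from untreated cells of the 15 min pair, whose libraries lay below both untreated ones, did not pass (-0.28 ± 0.10, adjusted p = 0.43). The rise over time was 0.35 with adjusted p = 0.072 in DESeq2, and it was lost without MS023 15 min replicate 1 (0.122), MS023 15 min replicate 2 (0.129) or MS023 3 h replicate 1 (0.212). SOX9 (chromosome 17, 72121020 to 72126420, plus strand) was called in no comparison. Its untreated libraries, at 23.0 and 16.6 CPM, lay further apart than those of any other group, and its highest value, 26.1 CPM, came from a GSK591 3 h library. The value with its smallest p, 0.33 ± 0.15 for GSK591 at 3 h against 15 min, had adjusted p = 0.18.

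ELF3 (chromosome 1, 202007945 to 202017188, plus strand), the most highly transcribed of the 9, had its 4 lowest values in the 4 libraries with Dex. They were 266 and 292 CPM with GSK591 and Dex and 291 and 303 with MS023 and Dex, against 319 to 421 in the 10 libraries without Dex. How many of all tested genes separated the Dex libraries in this way was not counted. Untreated cells had 374 and 347 CPM, GSK591 at 15 min 343 and 350, MS023 at 15 min 319 and 331, GSK591 at 3 h 342 and 379, and MS023 at 3 h 400 and 421. Against untreated cells ELF3 fell with GSK591 and Dex (-0.37 ± 0.10, adjusted p = 0.025, 0.775-fold). With MS023 and Dex it gave -0.28 ± 0.10 (adjusted p = 0.092), which passed with DESeq2, without the count filter, when only those groups were fitted, and with library size alone after leaving out mitochondrial genes. Dex added to the inhibitors gave -0.31 ± 0.10 beside GSK591 (adjusted p = 0.085) and -0.13 ± 0.10 beside MS023 (adjusted p = 0.54), and the difference between these was -0.18, with a 95% interval of -0.48 to 0.11. ELF3 rose from 15 min to 3 h of MS023 by 0.34 ± 0.10 (adjusted p = 0.024).

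The fall of ELF3 with GSK591 and Dex was lost without untreated replicate 1 (-0.32, adjusted p = 0.26), untreated replicate 2 (-0.42, 0.0739) or GSK591 and Dex replicate 1 (-0.31, 0.122), and when only those groups were fitted (-0.38, 0.0795). Its rise over time was lost without any 1 of the 4 libraries compared (0.31 to 0.37, adjusted p 0.0618 to 0.173). ELF3 shares 9.23% of its exonic bases with each of the antisense gene ELF3-AS1 and the sense intronic transcript AL691482.3. AL691482.3, on the same strand as ELF3, was called in the same direction in both comparisons: -0.67 ± 0.15 (adjusted p = 0.0043) with GSK591 and Dex, and 0.48 ± 0.15 (adjusted p = 0.03) over time with MS023. Its levels did not follow those of ELF3 in all groups. AL691482.3 had 21.9 and 26.5 CPM in untreated cells, 15.9 and 17.3 with GSK591 alone at 15 min, and 14.6 and 15.9 with GSK591 and Dex. ELF3 had 343 and 350 CPM with GSK591 alone at 15 min. ELF3-AS1 was not called in either comparison (0.13 ± 0.15 and -0.08 ± 0.16). The neighbouring gene RNPEP, an aminopeptidase gene 1798 bases away, also rose from 15 min to 3 h of MS023, by 0.54 ± 0.13 (adjusted p = 0.0044). With GSK591 and Dex, where ELF3 fell, RNPEP gave 0.30 ± 0.13 and was not called (adjusted p = 0.21).

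HES1 (chromosome 3, 194136145 to 194138732, plus strand), whose promoter with its RBPJ site and N boxes is printed above the results, also had its 4 lowest values in the 4 Dex libraries. They were 11.6 and 11.9 CPM with GSK591 and Dex and 10.2 and 11.2 with MS023 and Dex. The 10 libraries without Dex had 12.8 to 17.2 CPM, among them 14.8 and 13.2 in untreated cells and 15.2 and 15.6 with MS023 at 15 min. As for ELF3, the number of genes with such a separation was not counted. HES1 fell with Dex added to MS023 (-0.53 ± 0.16, adjusted p = 0.031, 0.693-fold). Against untreated cells it gave -0.39 ± 0.16 with MS023 and Dex (adjusted p = 0.14) and -0.26 ± 0.16 with GSK591 and Dex (adjusted p = 0.44), and neither passed. Dex added to GSK591 gave -0.25 ± 0.17 (adjusted p = 0.49), and the difference between the Dex effects, 0.28 ± 0.23, did not pass (adjusted p = 0.75, 95% interval -0.19 to 0.75). The fall beside MS023 was lost with DESeq2 (-0.53, adjusted p = 0.156) and without any 1 of the 4 libraries compared (-0.59 to -0.45, adjusted p 0.102 to 0.224). No annotated gene shares exonic bases with HES1.

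The Notch pathway, which acts upstream of HES1, was described with 18 genes, of which 17 were tested. In the comparison in which HES1 fell, Dex added to MS023, JAG1 and MAML1 rose, NOTCH4 fell and 14 of the 17 were not called (8.97% of all tested genes were called), and the list's median was 0.20 against -0.02 for all genes. MAML1, a coactivator in the Notch transcription complex, rose by 0.83 ± 0.12 there (adjusted p = 6.1e-06) and the ligand gene JAG1 by 0.32 ± 0.10 (adjusted p = 0.033). MAML1 had 27.0 and 25.8 CPM in untreated cells, 41.0 and 29.7 with GSK591 and 25.8 and 23.4 with MS023 at 15 min, 37.1 and 40.6 with GSK591 and Dex, 43.1 and 44.9 with MS023 and Dex, 71.0 and 72.3 with GSK591 at 3 h and 71.3 and 75.2 with MS023 at 3 h. It rose by 1.44 ± 0.11 at 3 h of GSK591 (adjusted p = 4.1e-12) and by 1.47 ± 0.12 at 3 h of MS023 (adjusted p = 5.6e-12), and the latter call held under all 22 alternatives (1.43 to 1.51). HES1 gave 0.12 ± 0.15 and 0.14 ± 0.15 in the same comparisons (adjusted p 0.70 and 0.67).

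MAML2, a relative of MAML1, rose with Dex added to GSK591 by 1.40 ± 0.26 (adjusted p = 0.00062), from 3.65 and 2.98 CPM to 7.21 and 10.4. JAG2, a Notch ligand gene, rose with MS023 and Dex against untreated cells by 0.56 ± 0.13 (adjusted p = 0.005), a call lost without untreated replicate 1 or MS023 and Dex replicate 1 (adjusted p up to 0.254). At 3 h, 2 of 17 genes rose with GSK591 (MAML1 and NRARP) and 1 with MS023 (MAML1), and none fell; 11% and 7.63% of all tested genes were called there, so these counts lie near the background. At 15 min, 0 of 17 were called with GSK591 alone (0.306% of all tested genes) or MS023 alone (0.183%). Notch pathway medians in the 3 h comparisons were 0.07 and 0.08, beside -0.01 and -0.01 for all genes.

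**Figure D4:**
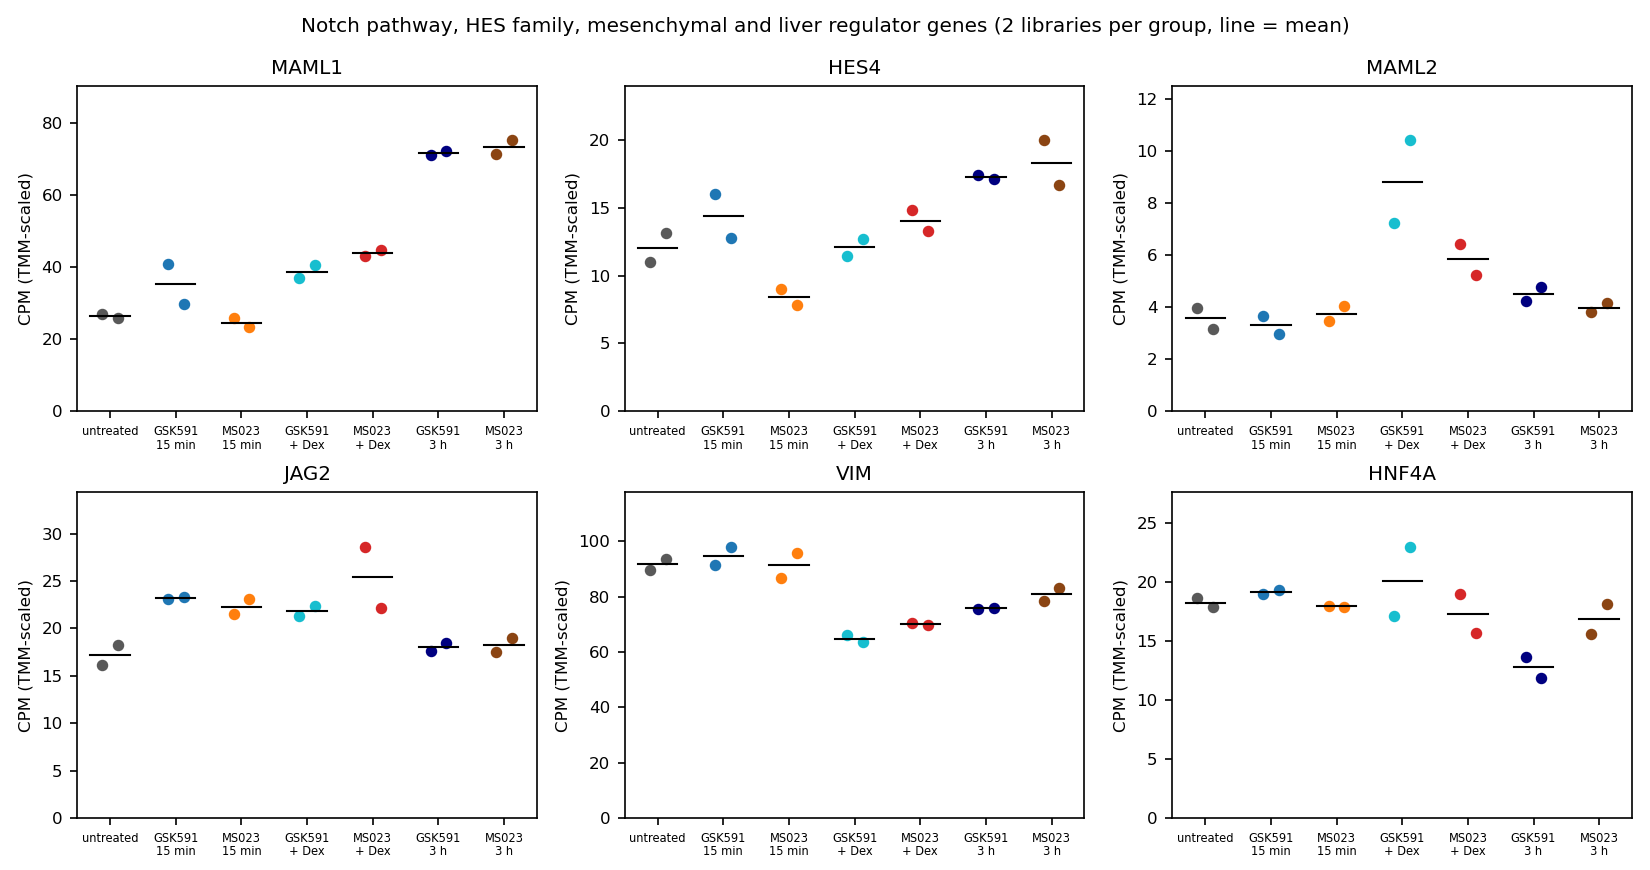
CPM in each library by group for MAML1, HES4, MAML2, JAG2, VIM and HNF4A, with lines at the group means. MAML1 reaches 71.0 to 75.2 CPM in the 4 libraries at 3 h, and VIM lies at 63.5 to 70.3 CPM in the 4 Dex libraries, below the other 10. The number of genes separated in this way was not counted.

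Relatives of the 9 factors were described with 18 genes, of which 15 were tested. HES4, another HES repressor gene, had a mean of 13.8 CPM, close to that of HES1. With Dex added to MS023 it rose by 0.73 ± 0.18 (adjusted p = 0.0047), and the difference between Dex effects was -0.98 ± 0.25 (adjusted p = 0.032). It had 8.97 and 7.81 CPM with MS023 at 15 min, 14.8 and 13.2 with MS023 and Dex, and 20.0 and 16.6 with MS023 at 3 h, against 11.0 and 13.1 in untreated cells. The rise with Dex was lost without MS023 15 min replicate 2 or MS023 and Dex replicate 1, and with library size alone (adjusted p = 0.0615 by edgeR). It ran from 0.65 to 0.85 over the fits that left out 1 library. HES4 also rose at 3 h of GSK591 (0.52 ± 0.16, adjusted p = 0.024) and of MS023 (0.61 ± 0.16, adjusted p = 0.0091). SOX12, a SOXC relative of SOX4 with a mean of 127 CPM, rose at 3 h of both inhibitors (0.47 ± 0.09, adjusted p = 0.00052, and 0.50 ± 0.09, adjusted p = 0.00025) and fell with Dex added to GSK591 (-0.37 ± 0.10, adjusted p = 0.018). SOX10 rose at 3 h of GSK591 by 1.19 ± 0.33 (adjusted p = 0.014) from 17 and 19 reads to 49 and 32, a call lost without either untreated library or GSK591 3 h replicate 1 (adjusted p up to 0.213). GATA2, the hematopoietic GATA factor, fell with MS023 and Dex (-0.65 ± 0.18, adjusted p = 0.018), a call lost without either untreated library or MS023 and Dex replicate 2 (adjusted p up to 0.327) and with DESeq2. Of the relatives of GRHL2, GRHL1 (3 to 17 reads) and GRHL3 (5 to 24 reads) passed the filter and were not called in any comparison, and ELF5, a relative of ELF3, failed the filter with 0 to 3 reads.

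Among 16 epithelial junction and splicing genes, many of them known targets of GRHL2 or ELF3, 12 were tested. The splicing regulator ESRP1 had 0 to 5 reads per library and ST14, OVOL1 and OVOL2 at most 10, while ESRP2 had a mean of 36.7 CPM. None of the 12 was called at 15 min with GSK591 (0.306% of all tested genes were called) or MS023 (0.183%). Against untreated cells, none was called with GSK591 and Dex (5.85%), MS023 and Dex (7.66%) or GSK591 at 3 h (11%). CLDN4 fell at 3 h of MS023 (-0.34 ± 0.10, adjusted p = 0.031), where 7.63% were called. With Dex added to MS023, EPCAM, an adhesion molecule gene, rose by 1.16 ± 0.35 (adjusted p = 0.029) from 12 and 14 reads to 35 and 29, and KRT19 fell (-0.70 ± 0.15, adjusted p = 0.0012). OCLN, a tight junction gene, fell with Dex added to GSK591 (-0.95 ± 0.26, adjusted p = 0.031). The EPCAM call was lost with DESeq2 and without MS023 15 min replicate 1 or either MS023 and Dex library (adjusted p up to 0.427), the KRT19 call without MS023 15 min replicate 1 (0.078), and the OCLN call with DESeq2 and without any 1 of the 4 libraries compared (up to 0.193). The E-cadherin gene CDH1 had 9 to 25 reads and was not called in any comparison. Of the 8 mesenchymal genes, VIM (vimentin) fell with Dex: it had 91.5 and 98.0 CPM with GSK591 and 65.9 and 63.5 with GSK591 and Dex (-0.55 ± 0.10, adjusted p = 0.00035), and the call held under all 22 alternatives. With Dex added to MS023 it fell too (-0.38 ± 0.10, adjusted p = 0.0069). VIM shares 24.4% of its exonic bases with other annotated genes. ZEB2 rose with MS023 and Dex against untreated cells (0.48 ± 0.13, adjusted p = 0.012) and SNAI1 fell at 3 h of GSK591 (-0.64 ± 0.18, adjusted p = 0.013); both calls were lost with DESeq2, ZEB2 also without any 1 of the 4 libraries compared (adjusted p up to 0.146) and SNAI1 without either untreated library or GSK591 3 h replicate 2 (up to 0.163).

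The list of alveolar type II genes, many of which NKX2-1 is known to drive, held 10, of which 6 were tested. None of the 6 was called in any of the 13 comparisons, in which 0% to 12% of all tested genes were called. For 6 genes, no call lies near that share. The summed level of the 10 was 78.2 and 82.8 CPM in untreated cells and 71.6 to 93.7 CPM over all groups. LPCAT1 alone had 38.6 and 37.2 CPM of this sum in untreated cells. SFTPB had a mean of 14.3 CPM and SFTPC 2.53 CPM in these libraries, in which NKX2-1 had 0 to 3 reads. Of the 7 gut and liver regulators, 6 were tested, among them HNF4A with a mean of 17.5 CPM. At 3 h of GSK591, HNF4A fell (-0.51 ± 0.15, adjusted p = 0.022) from 18.6 and 17.8 to 13.6 and 11.9 CPM, and HNF4G rose by 1.34 ± 0.29 (adjusted p = 0.001) from 17 and 25 to 55 and 50 reads. The HNF4A call was lost without any 1 of the 4 libraries compared and with DESeq2 (adjusted p up to 0.195), and the HNF4G call without untreated replicate 1 (0.0531).

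Of the 7 airway secretory genes, 5 were tested, and MUC5B, a gel-forming mucin gene, fell at 3 h of MS023 (-0.71 ± 0.13, adjusted p = 0.00027) from 47.9 and 49.9 to 34.7 and 24.7 CPM, a call that held under all 22 alternatives. Of the basal cell genes KRT15 alone was tested, and it fell with Dex added to MS023 (-0.75 ± 0.18, adjusted p = 0.005), a call lost without MS023 15 min replicate 2 or MS023 and Dex replicate 2 (adjusted p up to 0.162). Among alveolar type I genes, 4 of 6 were tested and CAV1 rose with Dex added to MS023 (0.41 ± 0.11, adjusted p = 0.0076), lost without MS023 15 min replicate 1 or MS023 and Dex replicate 2 (up to 0.203) and with library size alone (0.34). Without Dex, CAV1 was also called higher at 3 h of MS023 against untreated cells (0.36 ± 0.10, adjusted p = 0.022) and against 15 min (0.48 ± 0.11, adjusted p = 0.0012). KRT15 was called higher at 3 h of MS023 against untreated cells (0.55 ± 0.17, adjusted p = 0.041). With MS023 and Dex against untreated cells, neither KRT15 (-0.33) nor CAV1 was called. The type I genes HOPX and PDPN had at most 2 reads. Of the ciliated cell genes, 3 of 5 were tested and MCIDAS fell at 3 h of GSK591 (-0.48 ± 0.16, adjusted p = 0.039), lost without either untreated, GSK591 3 h or MS023 and Dex library (up to 0.21), with DESeq2 (0.178) and with library size alone (0.279). Of the neuroendocrine genes, 2 of 5 were tested and SYP fell with MS023 and Dex (-0.71 ± 0.15, adjusted p = 0.002), lost without untreated replicate 2 or MS023 and Dex replicate 1 (up to 0.124), while INSM1 and NEUROD1 had 0 to 1 read. Of 8 genes of other cell types, COL1A1 (40 to 69 reads) and CD68 (7 to 22 reads) were tested. Neither was called in any comparison, where 0% to 12% of all tested genes were called. The summed level of the 8 was 7.42 to 13.8 CPM over all groups.

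For the 3 factors called in the most comparisons, the genes with the most similar profile were found by the root mean square difference of centred log2 CPM over the 14 libraries, among genes whose mean was 2 CPM or more. FOXA2, whose own profile varied by 0.26 (root mean square, log2), had NR2F2 (0.119) and LARP1 (0.120) among its 3 closest matches. ELF3, with a variation of 0.18, was matched by H2AC25 (0.0665), TDP2 (0.0674) and ZNF48 (0.0718). GATA6, with a variation of 0.46 at its low counts, was matched by CCT6B (0.228), NKAIN3 (0.257) and L3MBTL3 (0.272). No other member was among these genes.

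In the authors' deposited tables, which compare each treatment with the control by DESeq2, no factor that was given an adjusted p had one under 0.05 in any of the 6 comparisons. The lowest in the authors' deposited tables was that of ELF3 with GSK591 and Dex, at -0.32 ± 0.12 (SE) with an adjusted p of 0.18. For FOXA2 with MS023 at 3 h, the authors' deposited table gives 0.44 ± 0.21 with an adjusted p of 0.34. The fit here gave -0.37 and 0.38 for these. Across 12604 genes, the fold changes of the authors' deposited tables followed untreated replicate 2 and not untreated replicate 1, with the weights given in the closing section.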

How the data were processed

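Counts per gene were made by the authors with featureCounts 2.0.1 (Subread) on hg38, per the submitters' processing notes; the aligner, counted feature, strand setting and duplicate handling are not given in the sources used here. The log2 fold changes and p-values of 6 comparisons were deposited by the authors and come from DESeq2, per the file headers. All identifiers matched GENCODE 29, used for coordinates and exon length. Across 13784 protein-coding genes, log2 counts had a slope of 0.85 ± 0.018 (SE) on log2 exon length and of -0.35 ± 0.0089 on log2 gene span. Levels were set per kb of exon because counts rose with exon length. Counting within exons does not by itself give the fall with span, whose cause was not tested.

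Counts were tested as deposited with edgeR 4.0.16 (R 4.3.3) quasi-likelihood tests: TMM scaling, edgeR's expression filter, all 14 libraries, 1 coefficient per group, 7 residual degrees of freedom, 13 contrasts and Benjamini-Hochberg adjustment over 21910 genes. CPM used TMM-scaled library sizes. The 3-read limit for a count of 0 covers counting error only. Functions were tested on simulated data.

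The members and lists were chosen with earlier results of these data known. Named genes were all 9 factors and, per list, up to 3 called genes, averaging 2 CPM or more, with the largest fold change in any of 8 comparisons (each treatment against untreated cells, and Dex added to each inhibitor), plus the most and least counted markers; SOX12, NOTCH4, JAG1, NRARP, CLDN4, AL691482.3 and RNPEP were chosen after their values were seen. A few genes that this rule names are not reported here. Alternatives were DESeq2 1.42.0, other scalings, no mitochondrial genes, no filter, fewer groups, a replicate block and each library left out. Same-numbered libraries did not deviate together (r over 0.1 in 1 of 21 pairs of groups, median 0.018), so they were not treated as pairs.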

Additional observations from a re-analysis of the deposited data

Results flagged for a closer look

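The effect of Dex differed between the inhibitors, by a test of the difference itself, for 3 genes among the 9 factors and 19 other named genes. Of all 21910 tested genes, 252 (1.15%) were called. The 19 were named for being called with large changes, some of them, such as HES4, with Dex added to an inhibitor. The count of 3 is therefore no result about these genes as a set. For FOXA2 the Dex effect beside GSK591 minus that beside MS023 was -0.89 ± 0.18 on the log2 scale (SE, n = 2 per group, adjusted p = 0.0071 by edgeR), from -0.44 beside GSK591 and 0.44 beside MS023. For MAML1 it was -0.70 ± 0.17 (adjusted p = 0.031), from 0.13 ± 0.12 (adjusted p = 0.64) and 0.83 ± 0.12 (adjusted p = 6.1e-06). For HES4 it was -0.98 ± 0.25 (adjusted p = 0.032), from -0.25 ± 0.17 (adjusted p = 0.49) and 0.73 ± 0.18 (adjusted p = 0.0047).

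The 3 differences share the MS023 15 min pair, in which FOXA2 (19.6 and 24.5 CPM), MAML1 (25.8 and 23.4 CPM) and HES4 (8.97 and 7.81 CPM) each had the lowest group mean of the 7. The mitochondrial shares of this pair were 44.5% and 39.8% of counts, beside 43.5% to 58.0% in the other 12 libraries; their part in the result was not tested. Without MS023 15 min replicate 1, FOXA2 gave -0.72 (adjusted p = 0.217), MAML1 -0.78 (0.186) and HES4 -1.10 (0.191). Without GSK591 15 min replicate 1, MAML1 gave -0.44 (0.471) and HES4 -0.81 (0.306), and both calls were also lost without any 1 of the MS023 15 min or Dex libraries; they held without GSK591 15 min replicate 2. DESeq2 gave adjusted p of 0.102 for MAML1 and 0.147 for HES4. In edgeR with library size alone, the adjusted p was 0.13 for MAML1 and 0.0789 for HES4. Fitting only the groups compared gave 0.0799 and 0.0668.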

How the results depend on the processing

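The 12 called fold changes of the factors kept their sign in all 262 values under alternative settings; 194 stayed called and 68 did not, with FOXA2 between 3 h and 15 min of MS023 called in every one. The 19 other named fold changes kept their sign in 416 of 416 values and stayed called in 358. With library size alone, the calls of CAV1, MCIDAS, EPCAM, HNF4A, SNAI1, ZEB2 and HES4 were lost. Leaving out mitochondrial genes with library size alone also ended that of ZEB2, and fitting only the groups compared that of OCLN. DESeq2 gave no adjusted p for GATA6. The replicate block changed no count: it gave 4 called factors for MS023 over time, 3 for Dex added to MS023, and 1 each for GSK591 and Dex and for MS023 at 3 h against untreated cells, as without the block, and FOXA2 over time gave 0.77 with adjusted p of 3.2e-05 under this pairing.

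Counts of called factors that moved were as follows. With DESeq2 the count was 1 for MS023 and Dex (ELF3), 0 for MS023 at 3 h, 0 for Dex added to MS023, 2 for MS023 over time and 0 between the inhibitors at 15 min; for Dex added to GSK591 it was 1 as before but another gene, ELF3 in place of FOXA2. With library size alone it was 0 for MS023 at 3 h, 2 for Dex added to GSK591, 1 for Dex added to MS023, 0 for the difference of Dex effects, 1 for MS023 over time and 0 between the inhibitors at 15 min; that scaling moved the median of all genes by -0.21, -0.19, 0.16 and -0.16 for Dex added to GSK591, Dex added to MS023, MS023 at 15 min and MS023 over time. With no count filter it was 1 for MS023 and Dex, 0 for MS023 at 3 h and 0 for Dex added to GSK591, where DESeq2 size factors, leaving out mitochondrial genes and fitting only the groups compared also gave 0. Fitting only the groups compared gave 0 for GSK591 and Dex and 1 for MS023 and Dex. Leaving out mitochondrial genes with library size alone, chosen after seeing the data, gave 2 for MS023 at 15 min (FOXA2, SOX4), 3 for GSK591 and Dex, 1 for MS023 and Dex, 2 for GSK591 at 3 h (FOXA1, SOX4), 0 for MS023 at 3 h and 2 for Dex added to GSK591. In that order, this setting called 194, 2093, 1802, 2680, 1597 and 920 of 21923 genes, of which 13, 345, 737, 988, 956 and 225 were higher. The medians of all genes were -0.16, -0.14, -0.09, -0.12, -0.06 and -0.05. The causes were not tested.

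Leaving out 1 library gave 0 to 1 for GSK591 and Dex, 0 to 1 for MS023 at 3 h, 0 to 1 for Dex added to GSK591, 0 to 3 for Dex added to MS023, 0 to 1 for the difference of Dex effects, 1 to 4 for MS023 over time and 0 to 1 between the inhibitors at 15 min; the other 6 comparisons stayed at 0. Over the other settings the count of all called genes ranged most for MS023 at 15 min (28 to 194, 40 as reported), GSK591 at 15 min (24 to 187, 67), the difference of Dex effects (69 to 496, 252) and GSK591 against MS023 at 15 min (29 to 293, 239) and at 3 h (0 to 47, 0). With 2 libraries a group and 7 to 27 reads of GATA6, changes smaller than those called could not be resolved for that gene.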

Other observations

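The deposited fold changes of the authors were set against the deposited counts by least squares across 12604 genes with a mean of at least 50 counts, with the log2 counts of the 2 treated and the 2 untreated libraries as predictors. In the authors' deposited tables the treated replicates had weights of 0.51 and 0.50 for GSK591 at 15 min, and untreated replicate 2 had -1.008 while untreated replicate 1 had -0.005 (R2 0.9981). The weights of untreated replicate 1 in the authors' deposited tables ran from 0 to 0.002 in the other 5 comparisons, and those of untreated replicate 2 from -1.007 to -1.001 (R2 0.9978 to 0.9996). SOX9, whose untreated libraries differ (23.0 and 16.6 CPM), shows this: the authors' deposited table gives 0.19 for GSK591 at 15 min, while the fit here on both untreated libraries gives -0.06. Why the weights are so was not tested.

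GRHL2, silent by the filter, had 5 reads in each MS023 3 h library and 0 to 3 in the other 12. The filtered edgeR fit did not test it. Without the count filter, no factor was called for MS023 at 3 h against untreated cells. The authors' deposited table gives 2.50 ± 2.52 (SE) for GRHL2 in that comparison, with no adjusted p.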
